A study of Mus musculus with 16 samples.

Results

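Loss of FMRP and CPEB1 together left cortical RNA close to wild type (WT): of 13287 genes tested, 1 passed the test in the double knockout against WT, and it was Fmr1 itself. The comparison uses the 4 RNA-seq libraries whose titles name either the Fmr1/Cpeb1 double knockout or wild type, 2 of each, out of 16 libraries in the series. The other 12 are RNA-seq libraries of the 2 single knockouts and ribosome footprint libraries of all 4 genotypes, again 2 per genotype and assay. Both genotypes compared carry the same strain label, FVB.129P2-/Pde6b+ Tyrc-ch //AntJ, both were taken at postnatal day 28 to 35, and neither received an agent. The construction of the knockout alleles is not given in the sources used here. The tissue was cerebral cortex of both hemispheres, homogenized in a buffer with translation inhibitors and cleared by low-speed centrifugation. A share of each cytoplasmic lysate went to ribosome profiling and the other to RNA-seq, in which rRNA was depleted and RNA fragments of 50 to 60 nt were sequenced. The labels do not say whether libraries 1 and 2 of a genotype came from different mice or from pools, so p-values measure the spread between these libraries, which may be technical.

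FMRP, the product of Fmr1, is an RNA-binding protein found on polyribosomes of neurons, where it binds many mRNAs of synaptic proteins and is best known as a repressor of their translation. Its loss causes fragile X syndrome. CPEB1 binds a short element in the tail region of mRNAs and controls the length of their poly(A) tails, and with it their translation, in oocytes and in neurons. Both proteins act on mRNA in the cytoplasm, the fraction sequenced here, and the comparison asks which cytoplasmic RNA levels differ when neither is made.

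RNA libraries held between 5423925 and 10246482 estimated counts, and in each genotype the library numbered 1 was the deeper of the pair. The 10 most abundant genes took 2.51% to 2.88% of counts. Slc17a7, the vesicular glutamate transporter of cortical excitatory neurons, was at 1461 and 1461 CPM (counts scaled to library size) in WT and at 1424 and 1637 in the double knockout. All 4 Y-linked genes looked at had counts in all 8 RNA libraries. Genes typical of neighbouring tissue had counts too, such as Ttr of the choroid plexus and Drd1, a dopamine receptor most abundant in striatum, which was at 50.9 and 66.6 CPM in WT and at 41.7 and 48.2 in the double knockout. In bulk tissue, fewer cells of a type and less RNA per cell cannot be told apart.

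The targeted genes followed the labels. Fmr1 (X:68678536-68717963 in GRCm38) was at 108.8 and 91.3 CPM in the WT libraries and at 25.2 and 21.5 CPM in the double knockout libraries, so the groups were far apart. Its log2 change was -2.10 ± 0.130 (SE), and it was called in edgeR's quasi-likelihood test (adjusted p = 8.48e-05, Benjamini-Hochberg over all genes tested). The remaining RNA was 23.3% of the WT level. That is the level of the single Fmr1 knockout, which had 25.9 and 18.4 CPM: the double knockout differed from it by 0.08, with a 95% interval from -0.23 to 0.38. Far less of it was on ribosomes, since Fmr1 footprints stood at 95.7 and 97.3 CPM in WT and at 5.33 and 5.52 in the double knockout, or 5.58% of WT.

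Cpeb1 (7:81347026-81458001) was at 43.9 and 33.6 CPM in WT and at 18.5 and 16.1 in the double knockout. All 4 knockout libraries of Cpeb1, single and double, lay below all 4 libraries with an intact gene. The log2 difference from WT was -1.16 ± 0.183 (SE), the RNA left being 44.6% of WT, but the edgeR test did not call it (adjusted p = 0.376). The call depended on the method: DESeq2 gave an adjusted p of 0.00947 and the authors' deposited table an adjusted p of 0.0018, both under the threshold. In footprints Cpeb1 was called in edgeR, at 35.5 and 33.4 CPM in WT against 7.73 and 7.69 in the double knockout (adjusted p = 4.54e-07).

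**Figure D1:**
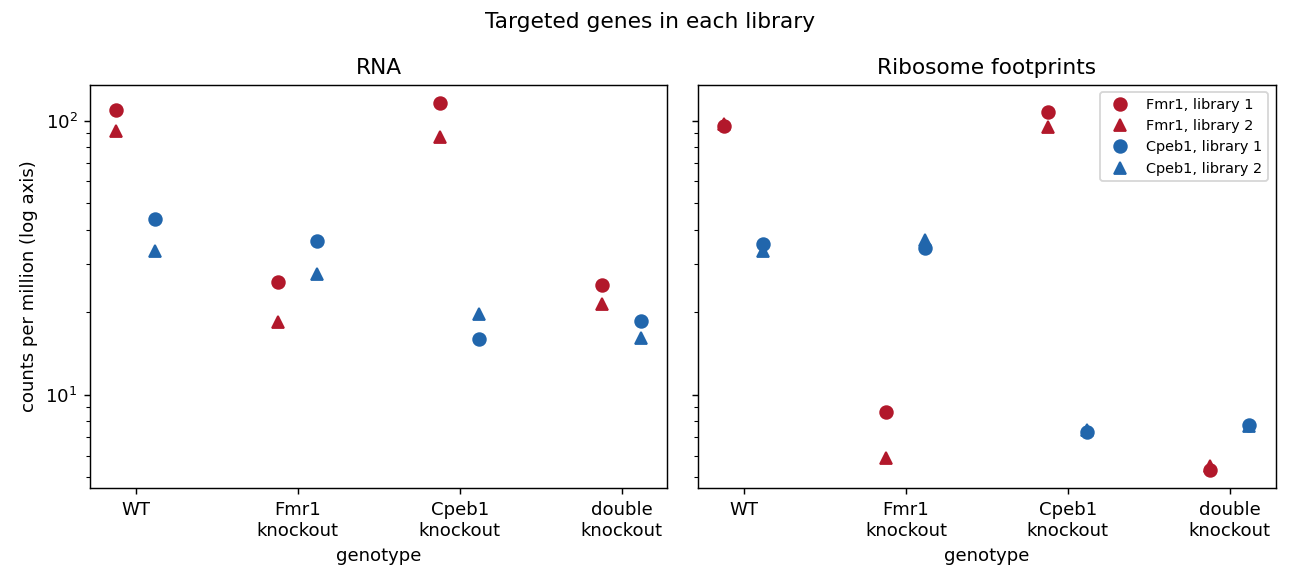
Fmr1 (red) and Cpeb1 (blue) in CPM on a log axis, by genotype, in RNA (left) and ribosome footprints (right); circles are libraries numbered 1 and triangles libraries numbered 2. Each gene is low in every library whose label names its knockout, and the drop is deeper in footprints than in RNA.

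Fmr1 was the only call, 0.00753% of the genes tested. At an unadjusted p under 0.05 there were 562 genes, or 4.23%, with 219 higher (1.65%) and 343 lower (2.58%) in the double knockout. The median size of the log2 difference over all genes was 0.126, and its median standard error was 0.166. Leaving out double knockout library 1 gave 5 called genes, all lower; leaving out any of the other 3 libraries gave 1 or 2. Fitting the 4 libraries of the 2 genotypes alone, with the replicate number kept in the fit and 1 residual degree of freedom, called 24 genes (9 higher, 15 lower). Ttr, Col1a1, Cpeb1, Tuba1c and Lipa were among them. That fit shared its estimate of spread fully among genes, so a gene's own spread between replicates did not enter its p-value. Tuba1c, with 388 and 1 counts in the double knockout, had an SE of 0.184 there against 1.10 in the main fit. Without the replicate number the same 4 libraries gave 1 called gene.

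How large a change the data leave room for depended on abundance. For 11475 genes (86.4%) the 95% interval of the difference lay inside a 2-fold change in either direction, and for 8167 (61.5%) it lay inside 1.5-fold. Among genes above 100 CPM, 99.8% were bounded inside 2-fold and 96.3% inside 1.5-fold. Between 5 and 20 CPM those shares were 93.0% and 36.9%, and between 1 and 5 CPM they were 28.2% and 0%. Most abundant mRNAs were thus bounded closely and rare ones were not.

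Aside from the targets, 93 genes had a fitted difference beyond 2-fold, 44 higher and 49 lower, and 87 of them averaged under 5 CPM. The differences in library 1 and library 2 had little in common. Across 13287 genes the change from WT library 1 to double knockout library 1 correlated with that from WT library 2 to double knockout library 2 at r = 0.0301, a description over genes, which are not independent. The direction was shared by 51.1% of genes.

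**Figure D2:**
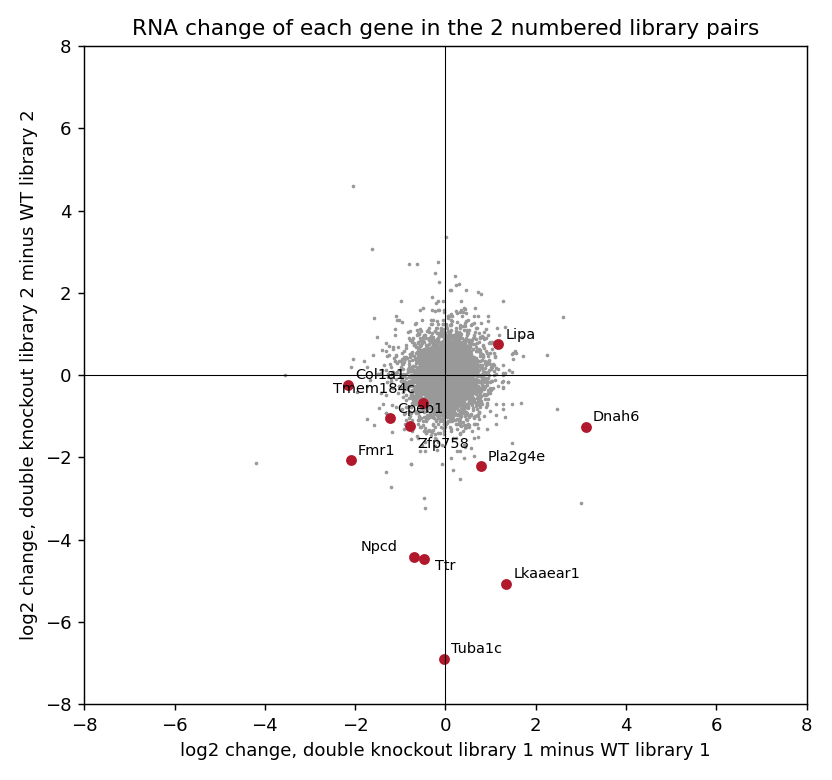
Each point is a gene, placed by its log2 RNA change in the libraries numbered 1 (horizontal) and in those numbered 2 (vertical), with some genes named in red. Fmr1 and Cpeb1 lie low on both axes, whereas the cloud of other genes shows almost no slope (r = 0.0301) and Tuba1c, Lkaaear1, Dnah6 and Pla2g4e lie far out on 1 axis or in opposite directions.

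No gene other than Fmr1 passed the test, and the genes described next are those with the largest differences in either direction that were shared by both numbered pairs. Their adjusted p in edgeR was 0.966 in each case, so they are given as values. Libraries of the double knockout and of WT did not overlap in 1888 genes higher (14.2%) and 2052 lower (15.4%), which is the background for the word "overlap" below.

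Among the higher genes, Lipa, the lysosomal acid lipase that frees cholesterol from its esters, had the largest difference. It was at 9.0 and 13.0 CPM in WT and at 20.6 and 22.1 in the double knockout, a log2 difference of 0.99 ± 0.254 (SE). Its level was as high in the Cpeb1 knockout, at 20.9 and 23.6 CPM, and in Fmr1 knockout library 1, at 22.0. Fmr1 knockout library 2, at 13.4 CPM, was close to WT library 2. Lipa footprints went the other way, from 32.6 and 24.0 CPM in WT to 21.9 and 18.5 in the double knockout.

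Nbl1, a secreted antagonist of BMP signalling, showed a different layout. WT had 14.3 and 11.0 CPM and the double knockout 22.3 and 21.2, a log2 difference of 0.77 ± 0.174 (SE). Both single knockouts lay at or under WT, with 12.5 and 10.4 CPM in the Fmr1 knockout and 8.45 and 8.69 in the Cpeb1 knockout. The double knockout libraries were therefore above all 6 others. Nbl1 footprints were at 12.7 and 6.22 CPM in WT and at 14.0 and 12.9 in the double knockout, where library 1 of WT came close to the double knockout.

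Hes5, a transcriptional repressor induced by Notch, was at 10.6 and 9.56 CPM in WT and at 17.1 and 17.7 in the double knockout (log2 difference 0.78 ± 0.183, SE). The highest of the other 4 RNA libraries was at 13.8 CPM, so here too the double knockout stood above every other library. In footprints Hes5 was at 17.4 and 10.7 CPM in WT and 22.1 and 21.3 in the double knockout, just short of a call (edgeR adjusted p = 0.0501). Hes5 is enriched in astrocytes, and 9 of 12 astrocyte markers had a positive RNA difference, as described with the gene lists. In footprints, where Hes5 was higher, the median of the astrocyte markers was -0.21. A link between Hes5 and astrocyte content was not tested.

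Slc9a3r1, a scaffold that ties membrane transporters to the actin cytoskeleton, was at 16.8 and 13.7 CPM in WT and at 23.3 and 29.7 in the double knockout. Its 4 single knockout libraries lay between 14.0 and 17.7 CPM, within or near the WT range. Gpr124, an endothelial receptor needed for brain angiogenesis, went from 4.70 and 7.22 CPM to 9.56 and 10.5. Hspg2, which encodes the basement membrane proteoglycan perlecan, went from 6.10 and 7.22 to 11.9 and 8.75. P3h3, a collagen prolyl hydroxylase, went from 9.0 and 7.40 to 11.2 and 16.9. In these genes too the double knockout libraries topped the other 6.

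Gp1bb, known from platelets, went from 6.70 and 5.05 CPM to 9.80 and 9.38. The 8 genes spanned log2 differences from 0.66 to 0.99. In all 8 both double knockout libraries exceeded both WT libraries. The rule did not ask for this, but favours it by asking for a low p and a direction shared by both numbered pairs. Endothelial markers as a list did not share this: 5 of 10 were higher and 5 lower in the double knockout.

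Among the lower genes, Zfp758, a zinc finger gene, was the one with the closest replicates. It was at 18.2 and 17.7 CPM in WT, at 10.5 and 7.32 in the double knockout, and between 13.6 and 17.3 in the 4 single knockout libraries. The log2 difference was -0.997 ± 0.190 (SE). Its footprints were called in edgeR, at 7.59 and 7.84 CPM in WT and at 4.82 and 2.98 in the double knockout (log2 change -0.99, adjusted p = 0.027). Zfp942, which lies less than a megabase from it on chromosome 17 and is also a zinc finger gene, was at 23.6 and 25.1 CPM in WT and at 17.7 and 9.54 in the double knockout.

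In Zfp942 and in the 3 genes named next, library 2 of the double knockout was also the lowest of all 8. Elovl7, a fatty acid elongase, was at 11.0 and 12.6 CPM in WT and at 8.71 and 4.77 in the double knockout. Anapc10, a subunit of the anaphase-promoting complex, was at 9.30 and 13.7 and then 7.62 and 5.25. AW146154 was at 8.10 and 9.92 and then 5.93 and 3.66. Elovl7 was also called in footprints (log2 change -0.74, edgeR adjusted p = 0.0429).

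The 3 largest differences downward depended on single libraries. Ttr, the thyroid hormone carrier that the choroid plexus secretes, was at 52.4 and 219 CPM in WT and at 37.7 and 9.70 in the double knockout. WT library 2 was thus the highest of 8 and double knockout library 2 the lowest. The log2 difference of -2.47 ± 0.671 (SE) became -0.85 when WT library 2 was left out and -1.49 when double knockout library 2 was, and its footprints were higher in the double knockout, at 57.0 and 41.1 CPM against 18.8 and 20.6 in WT. Of the other 6 choroid and ependyma markers tested, 5 were lower, 3 of 6 in the libraries numbered 1 and 5 of 6 in those numbered 2. Without Ttr they summed to 18.9 and 29.8 CPM in WT and to 19.4 and 12.7 in the double knockout, and to between 14.0 and 21.3 in the single knockouts, so WT library 2 was the highest of 8 and double knockout library 2 the lowest, as for Ttr. Their part in the differences of other genes was not tested.

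Col1a1, a chain of type I collagen, was at 59.1 CPM in WT library 1 and at 24.7 in WT library 2, against 13.1 and 21.0 in the double knockout. Without WT library 1 its log2 difference was -0.40, against -1.33 with it. Col1a2, the partner chain, showed the same high value in WT library 1, at 44.1 CPM against 22.9 in library 2, with 16.5 and 25.1 in the double knockout. Npcd was at 25.3 and 32.5 CPM in WT, 15.6 in double knockout library 1 and 1.27 in library 2. Its locus spans those of Nptxr and Cbx6, so the counting may have divided reads among the 3 and the Npcd value is uncertain. Nptxr itself, a neuronal pentraxin receptor, was at 358 and 314 CPM in WT and at 369 and 420.4 in the double knockout.

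**Figure D3:**
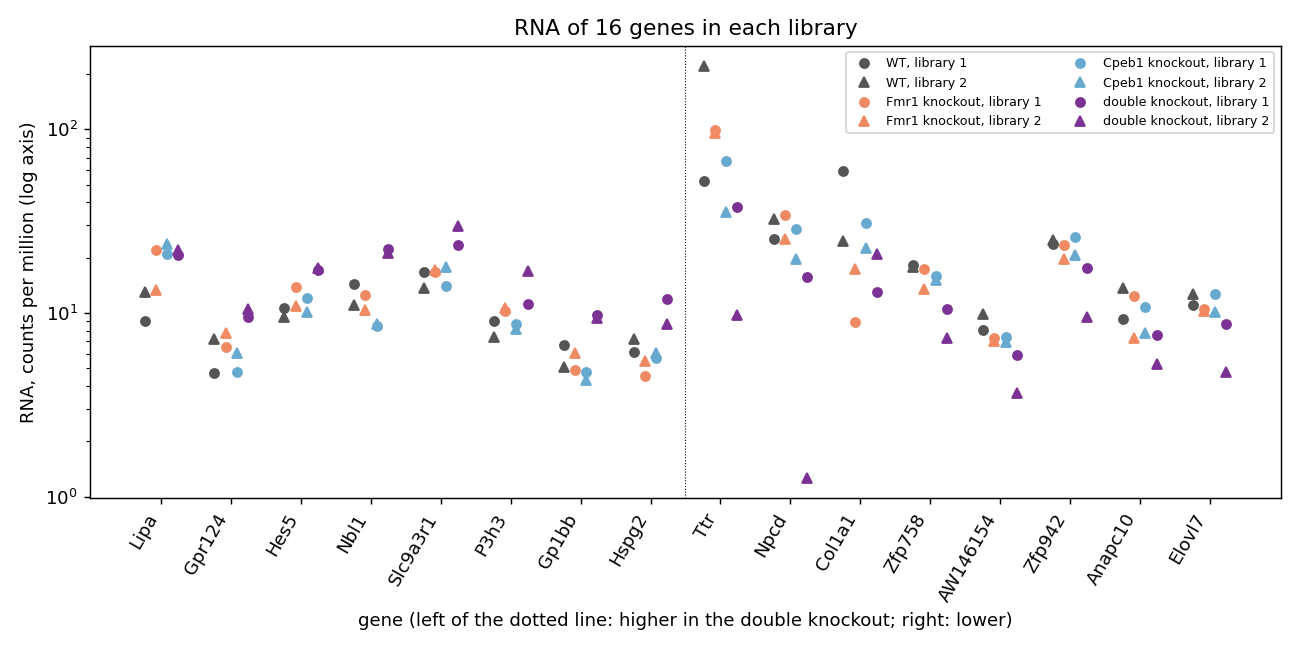
RNA of the 8 genes with the highest and the 8 with the lowest log2 difference, in CPM on a log axis, with all 8 RNA libraries shown (circles library 1, triangles library 2). In Hes5, Nbl1, Slc9a3r1, Gpr124, P3h3, Gp1bb and Hspg2 both double knockout points top the other genotypes, while Ttr, Npcd and Col1a1 depend on a single high or low library.

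The 6 genes that differed most between the 2 numbered comparisons were Ttr, Npcd, Tuba1c, Lkaaear1, Dnah6 and Pla2g4e. Tuba1c, an alpha-tubulin gene, had 47.8 and 49.4 CPM in WT and 46.9 in double knockout library 1, and 1 count (0.159 CPM) in double knockout library 2. It was also nearly empty in Cpeb1 knockout library 2, at 0.465 CPM, and high in the other single knockout libraries, from 45.6 to 101 CPM. In footprints the empty libraries were others: WT library 2 was at 0.138 CPM and double knockout library 2 at 0.248, while Cpeb1 knockout library 2 was at 197. The on-and-off pattern thus did not follow genotype, and for WT and the Cpeb1 knockout it did not match between the assays' libraries numbered 2. Alpha-tubulin genes are near-identical in coding sequence, and how the counting divided their reads was not tested.

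Pla2g4e, a member of the cytosolic phospholipase A2 family, was at 37.6 and 52.1 CPM of RNA in WT and at 64.8 and 11.0 in the double knockout. The 4 single knockout libraries lay between 30.0 and 61.4 CPM, so the low library was double knockout library 2 alone. Footprints gave another layout, with 10.7 and 9.91 CPM in WT and 54.4 and 55.6 in the double knockout. RNA of the libraries numbered 1 was higher in the double knockout, as footprints were, and RNA of those numbered 2 was lower. The fitted RNA difference was -0.27 ± 0.522 (SE), against 2.41 in footprints, so its direction is uncertain. Dnah6, an axonemal dynein heavy chain, spread from 2.80 to 32.1 CPM over the 8 RNA libraries with high and low libraries in both WT (3.50 and 30.7) and the Fmr1 knockout (25.4 and 2.80). Lkaaear1 was at 9.10 and 24.5 CPM in WT and at 23.6 and 0.477 in the double knockout.

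Whether a footprint library and an RNA library of the same genotype and number came from 1 lysate is not stated in the labels, and the values of Tuba1c and Pla2g4e are given here because they bear on it.

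Gene lists gave the same picture of small differences. Over all genes tested, 6603 were higher and 6684 lower in the double knockout, with a median log2 difference of -0.0018, and each list is read against that. FMRP-bound mRNAs, 89 genes known from brain for FMRP on their coding regions, had 43 higher and 46 lower with a median of -0.0050. None of the 89 had an unadjusted p under 0.05, against 4.23% of all genes. Their differences ran from -0.26 in Pclo, a presynaptic scaffold, to 0.29 in Shank3, a postsynaptic scaffold. For 84 of 89 the 95% interval lay inside 1.5-fold. Dync1h1, the heavy chain of cytoplasmic dynein, was at 3085 and 2051 CPM in WT and 2839 and 2107 in the double knockout. The 2 genotypes overlapped.

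FMRP's relatives and partners, 10 genes, had 4 higher and 6 lower and no gene at an unadjusted p under 0.05. Cyfip2, a partner that also sits in the WAVE actin complex, was at 1653 and 1616 CPM in WT and 1614 and 1550.1 in the double knockout. The CPEB family and its partners, 14 genes, had 4 higher and 10 lower with a median of -0.07. The numbered pairs did not share this direction. The median was 0.06 in libraries numbered 1, with 9 of 14 higher, and -0.14 in those numbered 2, with 4 of 14 higher. Among 7 mRNAs reported as CPEB1 targets, Camk2a was at 1119 and 681 CPM in WT and 1333 and 721 in the double knockout, where the libraries numbered 1 were high in both genotypes.

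The machinery of protein synthesis was near WT. Of 82 ribosomal protein genes 52 were higher, with a median of 0.04 and 1 at an unadjusted p under 0.05. That gene, Rps16, was at 94.7 and 36.8 CPM in WT and at 107 and 62.2 in the double knockout, which overlap. Translation factors had 11 of 34 higher, with a median of -0.06 and 3 lower at an unadjusted p under 0.05. Eif3e, a subunit of initiation factor eIF3, was at 146 and 159 CPM in WT and 132 and 119.8 in the double knockout. Eef2, the elongation factor that moves the ribosome along, went from 1268 and 1173 to 1406 and 1386.

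Genes of mRNA decay and deadenylation, through which poly(A) tail length acts, had 14 of 40 higher, a median of -0.08 and 2 lower at an unadjusted p under 0.05. Here too the median was 0.04 in libraries numbered 1, with 21 of 40 higher, and -0.08 in those numbered 2, with 14 of 40 higher. Cnot7, a deadenylase of the CCR4-NOT complex, was at 74.2 and 83.3 CPM in WT and at 64.8 and 60.1 in the double knockout. The mTOR pathway had 12 of 25 higher and a median of -0.0047, and Mtor itself was at 388 and 334 CPM and then 398 and 330.2. Proteasome subunits (19 of 36 higher, median 0.01), tRNA synthetases (10 of 20, median 0.02), mitochondrial ribosomal proteins (42 of 77, median 0.02) and respiratory chain subunits (39 of 76, median 0.01) were split evenly. In the respiratory chain the median was -0.09 in the libraries numbered 1 and 0.09 in those numbered 2, so even the direction was not shared.

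At the synapse, GABA-A receptor subunits leaned lower, with 11 of 13 below WT and a median of -0.13. The median was -0.04 in libraries numbered 1, with 6 of 13 higher, and -0.20 in those numbered 2, with 1 of 13 higher. Gabra4, found in extrasynaptic receptors, was at 176 and 161 CPM in WT and at 148 and 128 in the double knockout. Gabra5 was at 49.5 and 50.2 and then at 34.7 and 43.6. In these 2 genes, each with p below 0.05 before adjustment, both double knockout libraries lay under both WT libraries. Gabrb2, a beta subunit, overlapped, at 220 and 237 CPM and then at 225 and 206. In footprints all 13 subunits had a negative difference, and Gabra2 and Gabrg1 were called lower in edgeR (adjusted p = 0.0122 and 0.0308).

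Postsynaptic scaffolds had 16 of 22 higher with a median of 0.08, and none at an unadjusted p under 0.05. Homer2 had the lowest p of them, at 21.1 and 13.2 CPM in WT and 23.0 and 21.5 in the double knockout. Glutamate receptor subunits (10 of 22 higher, median -0.02), presynaptic release genes (12 of 27, median -0.03) and potassium channels (19 of 57, median -0.05) held 0, 1 and 2 genes at an unadjusted p under 0.05. The presynaptic gene was Vamp1, a synaptobrevin, at 19.4 and 22.4 CPM in WT and at 14.0 and 16.5. Kcnq5, a subunit of the M-type potassium channel, went from 174 and 162 to 128 and 144.

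Immediate-early genes, which neuronal activity induces within minutes, stood farther from WT in footprints than in RNA. In RNA 21 of 30 were higher with a median of 0.11, none at an unadjusted p under 0.05, and the spread between replicates was large. Arc was at 161 and 51.8 CPM in WT and at 227 and 67.4 in the double knockout, and Nr4a1 at 126 and 72.2 and then 186 and 66.6. Egr1 was at 149 and 175 and then at 183 and 91.3. In each of the 3 genes the double knockout libraries spanned the WT libraries or overlapped them. Npas4, a neuronal activity-dependent transcription factor, was at 19.0 and 14.4 CPM in WT and at 36.9 and 20.0 in the double knockout, and Ier5 at 80.9 and 69.5 and then at 82.6 and 96.6. In these 2 genes the genotypes did not overlap. In footprints the median was 0.71, and 15 of the 30 genes were called higher in the double knockout in edgeR, against 1.5% of all genes tested in footprints.

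Arc footprints were at 160.3 and 249 CPM in WT and at 390.0 and 409.7 in the double knockout (log2 change 1.00), and Fos footprints at 72.0 and 119.5 and then at 177 and 204. The RNA of Fos stood at 35.4 and 23.5 CPM in WT against 42.7 and 17.7 in the double knockout. The difference between the assays was not tested for these genes. Circadian clock genes had 5 of 18 higher in RNA, with a median of 0.04 in libraries numbered 1 and -0.23 in those numbered 2. Heat shock genes had 12 of 17 higher and a median of 0.09, with Hspa8 at 4094 and 3821 CPM in WT and 4292 and 4103 in the double knockout. Their median was 0.02 in libraries numbered 1 and -0.02 in those numbered 2.

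Markers of brain cell types were compared for what the tissue held. Excitatory neuron markers (5 of 11 higher, median -0.02) and interneuron markers (4 of 12, median -0.08) were near WT. Astrocyte markers had 9 of 12 higher and a median of 0.26, the highest median of any list of at least 10 genes. Aqp4, the water channel of astrocyte endfeet, was at 26.8 and 22.4 CPM in WT and at 32.7 and 31.5 in the double knockout. Sox9, an astrocyte transcription factor, was at 8.20 and 9.20 and then at 15.2 and 11.3. Slc1a2, the main glutamate transporter, was at 664 and 630.0 and then at 789 and 767. The groups did not overlap in any of the 3 genes. Aldoc, a glycolytic enzyme of astrocytes, did overlap, at 413 and 342 CPM in WT and at 344 and 390 in the double knockout. Summed over the list, astrocyte markers were at 1634 and 1510 CPM in WT and at 1751 and 1765 in the double knockout.

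In footprints the astrocyte median was -0.21 and 3 of the 12 genes were called lower (against 1.15% of all genes), among them Slc1a3, so the assays did not share a direction. Microglia markers behaved likewise, with 10 of 13 higher in RNA (median 0.16) and a footprint median of -0.52 with 2 called lower. Csf1r, the receptor on which microglia depend, was at 10.7 and 13.2 CPM of RNA in WT and at 14.6 and 19.9 in the double knockout, while its footprints were at 11.3 and 17.1 and then at 7.83 and 10.7. Oligodendrocyte markers had 2 of 14 higher and a median of -0.14, though Mbp, a myelin protein, was higher at 95.7 and 83.7 and then 127 and 91.3. The lower median came from the libraries numbered 2, at -0.37 with 3 of 14 higher. In those numbered 1 it was 0.01 with 8 of 14 higher. Summed over the list, the markers were at 1895 and 2338 CPM in WT and at 1987 and 1914 in the double knockout. Oligodendrocyte precursor markers had 7 of 8 higher and a median of 0.05. The 10 mural and fibroblast markers had a median of -0.30, from -0.65 in libraries numbered 1 to 0.05 in those numbered 2. All 11 mural and fibroblast markers in the files summed to 163 CPM in WT library 1 and to between 77 and 127 in the other 7 libraries. The part of cell makeup in the differences of other genes was not tested.

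**Figure D4:**
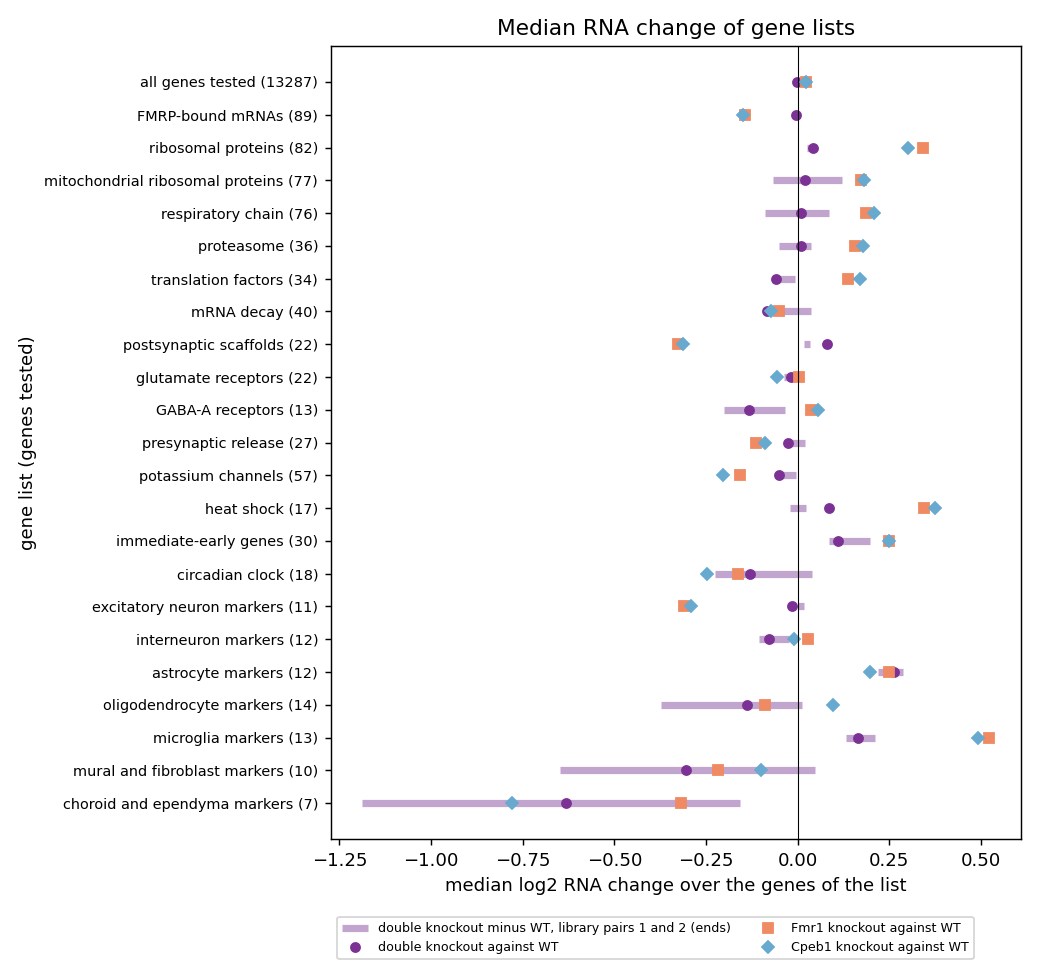
Median log2 RNA difference of the genes in each list (number tested in parentheses) for the double knockout (purple circles), the Fmr1 knockout (orange squares) and the Cpeb1 knockout (blue diamonds), each against the same 2 WT libraries; the pale bar joins the double knockout medians of the 2 numbered library pairs. Double knockout medians lie near 0 for ribosomal proteins, FMRP-bound mRNAs, postsynaptic scaffolds and excitatory neuron markers, where both single knockouts lie to 1 side.

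The single knockouts, set beside the double knockout, lay farther from WT in several lists. All 3 comparisons share the 2 WT libraries, so a like value in the 3 is no independent repeat. For ribosomal proteins the median was 0.34 with Fmr1 alone lost, 0.30 with Cpeb1 alone lost and 0.04 with both. For postsynaptic scaffolds they were -0.33, -0.31 and 0.08, for excitatory neuron markers -0.31, -0.29 and -0.02, and for FMRP-bound mRNAs -0.14, -0.15 and -0.0050. Over all genes the median size of the difference from WT was 0.155 for loss of Fmr1, 0.165 for loss of Cpeb1 and 0.126 for loss of both. In the same order, 8.09%, 11.0% and 4.23% of genes had p below 0.05 before adjustment. Called genes numbered 1, 0 and 1 in edgeR. The share of 4.23% for the double knockout was not stable. It moved with the library left out, and was 1.39% in DESeq2 and 5.96% with gene length correction. The shares of the single knockouts were not computed under these alternatives, so the order of the 3 is uncertain.

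The difference between these effects was tested as the interaction of both knockouts, which asks whether the double knockout departs from the sum of the single knockouts on the log2 scale. It called 274 genes in edgeR, 2.06% of those tested, with 236 higher (1.78% of genes tested) and 38 lower (0.286%) in the double knockout than that sum. At an unadjusted p under 0.05 there were 3106 genes, or 23.4%. In the 236 genes the double knockout had a median difference from WT of 0.08, against -0.47 for loss of Fmr1 and -0.59 for loss of Cpeb1. In the 38 genes it was -0.06, 0.46 and 0.41. For 256 of the 274 (93.4%) the double knockout was nearer to WT than either single knockout, which is true of 45.2% of all genes tested and which the choice by interaction favours. For 19 the comparison of the double knockout with WT had p below 0.05 before adjustment. The count was fragile: it was 0 when either WT library or double knockout library 1 was left out, 1 or 2 without either Fmr1 knockout library, 20 without Cpeb1 knockout library 1, 1044 without Cpeb1 knockout library 2 and 1360 without double knockout library 2.

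The interaction genes with the lowest p-values, chosen after their values were seen, show the layout. Arhgap33, a GTPase activator of neurons, was at 183 and 224 CPM in WT and at 228 and 220.1 in the double knockout, whereas the Fmr1 libraries held 122 and 152 CPM and the Cpeb1 libraries 104 and 143. Dbp, a circadian transcription factor, was at 76.4 and 70.9, 84.1 and 85.7, 45.5 and 54.1, and 42.6 and 50.0 in the same order. Fabp7, a fatty acid binding protein of astrocytes and radial glia, ran the other way, at 22.9 and 20.2, 29.2 and 22.7, 62.6 and 39.6, and 40.7 and 36.5. In Arhgap33 and Dbp the 4 single knockout libraries lay below the 4 others, and in Fabp7 above them.

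Against each single knockout directly, the double knockout had 0 called genes (Fmr1 knockout; 2087 at an unadjusted p under 0.05, 15.7%) and 1 called gene, Fmr1 (Cpeb1 knockout; 2550, 19.2%) in edgeR. DESeq2 called 31 and 212. The authors' deposited tables list 202 and 459 genes with an adjusted p under 0.05. The authors' deposited table of WT and the double knockout listed 15086 genes, of which 2 passed, Fmr1 and Cpeb1, both lower in the double knockout. DESeq2 called 3 genes against WT, Fmr1, Cpeb1 and A730008H23Rik. Calls against WT were thus few in each of these, and the number of calls against the single knockouts was not shared.

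Ribosome footprints of the same 2 genotypes gave more calls, 365 of 13774 genes (2.65%) in edgeR, 206 higher and 159 lower. They come from deeper libraries, of 16239703 to 24973757 counts, and their number also moved with single libraries: it was 1318 without WT library 1, 212 without WT library 2, 78 without double knockout library 1 and 31 without double knockout library 2. Leaving out the targets, 361 of these genes were also tested in RNA. RNA had the same direction as footprints in 308 (85.3%), against 66.5% of all 13025 genes tested in both assays. In the 204 genes with higher footprints the median log2 change was 0.48 in footprints and 0.17 in RNA, and in the 157 with lower footprints it was -0.45 and -0.23. The RNA difference had an unadjusted p under 0.05 in 61 genes (16.9%, against 4.23% of all genes tested), 60 of them in the footprint direction.

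Read from RNA, the 560 genes at an unadjusted p under 0.05, targets left out, gave a like result. Of the 549 also tested in footprints, 451 (82.1%) had the same direction there and 61 (11.1%) were called, against 2.77% of all genes tested in both. Genes higher in RNA had medians of 0.48 in RNA and 0.20 in footprints, and genes lower in RNA had -0.39 and -0.23. These genes were no rarer than others, with a median of 26.6 CPM against 27.7 over all genes. As both assays drew on lysates of the same kind, and the labels do not say which libraries share one, the assays may not be independent.

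The genes with a footprint call and the lowest RNA p-values are given next; Zfp758, described above, is 1 of the 8. Tmem184c was at 79.4 and 88.0 CPM of RNA in WT and at 56.0 and 54.6 in the double knockout, with a log2 difference of -0.60 ± 0.126 (SE). Its 4 single knockout libraries lay between 85.0 and 100.1 CPM, so the double knockout was below all others. Tmem184c footprints were at 16.7 and 15.5 CPM in WT and at 11.0 and 9.37 in the double knockout (log2 change -0.66, edgeR adjusted p = 0.0262).

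Gpr22, an orphan receptor of the brain, was at 73.6 and 70.2 CPM of RNA and then at 52.0 and 53.0, below the range of 70.6 to 95.2 in the single knockouts. It lies within the span of Cog5, which was at 79.3 and 83.2 and then at 75.6 and 61.2, and how the counting divided reads between them was not tested. Tmem56 was at 37.6 and 40.6 CPM and then at 27.8 and 26.6. Pcdh11x, an X-linked protocadherin, was at 64.2 and 68.9 and then at 53.9 and 41.0. In these 3 genes as well the double knockout held the lowest 2 of 8 RNA libraries.

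Pls3, which encodes the actin-bundling protein plastin 3, was at 213 and 163 CPM of RNA in WT and at 146 and 113 in the double knockout, but Fmr1 knockout library 2 was at 124, inside the double knockout range. Its footprints were tighter, at 443 and 443 CPM and then at 297 and 294 (log2 change -0.58, edgeR adjusted p = 0.0033). Stat4, a transcription factor of cytokine signalling, was at 3.10 and 2.89 CPM of RNA and then at 1.21 and 0.954, the largest difference of these genes at -1.44 ± 0.388 (SE). Srrm3, a splicing factor for neuronal microexons, was the only one of the 8 that was higher, at 46.6 and 43.5 CPM in WT, 61.9 and 60.4 in the double knockout and 34.7 to 41.6 in the single knockouts. Its footprints were at 44.8 and 44.2 CPM and then at 59.6 and 60.6, so both assays gave a log2 difference near 0.44 (0.44 in RNA and 0.43 in footprints).

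**Figure D5:**
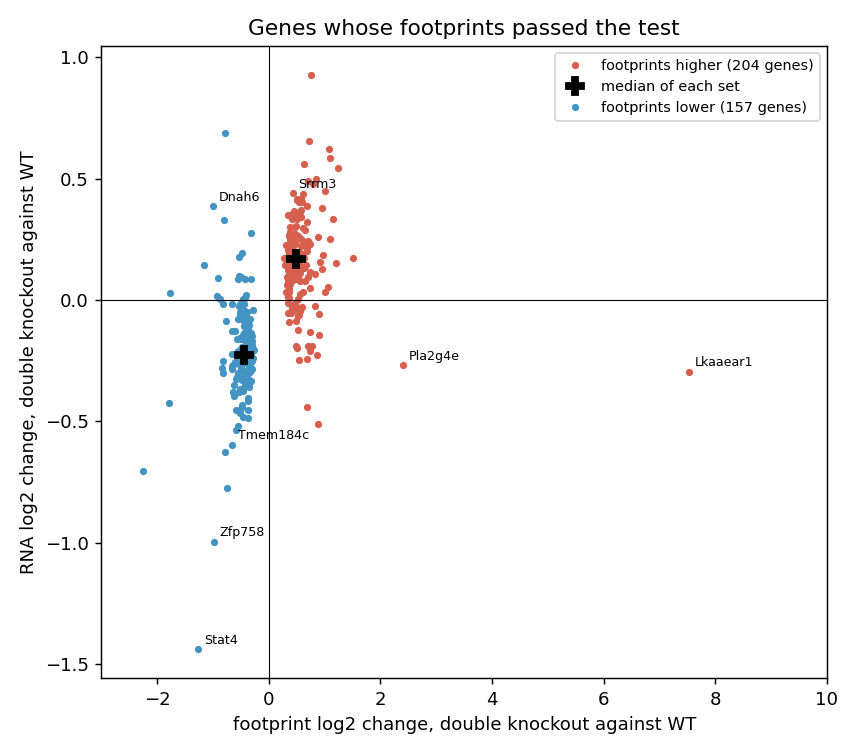
The 361 genes called in footprints and tested in RNA, targets left out, by log2 footprint change (horizontal) and log2 RNA difference (vertical), double knockout against WT; red points are the 204 higher and blue points the 157 lower in footprints, and black crosses mark the medians. Most points lie in the quadrants of shared direction, with RNA differences smaller than those in footprints. Pla2g4e and Lkaaear1 lie far to the right with the fitted RNA difference just below 0, though its direction differed between the numbered pairs in both genes. The place of Lkaaear1 rests on WT footprints of 0 and 0 CPM.

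Position on the chromosome was examined around both targeted genes, with RefSeq positions of GRCm38.p6. Within 10 Mb of Cpeb1 on chromosome 7, 14 of 87 genes tested (16.1%) differed between double knockout and WT with p below 0.05 before adjustment, 8 of them higher and 6 lower. Outside both windows the share was 4.12%. In the Cpeb1 knockout 24 of the 87 did (27.6%, against 10.9% outside), and in the Fmr1 knockout 10 did (11.5%, against 8.06%). Mex3b, an RNA-binding protein gene 1.47 Mb from Cpeb1, was at 31.3 and 24.5 CPM in WT and at 43.8 and 44.7 in the double knockout. Mfge8, a secreted bridge for phagocytosis, was at 65.2 and 52.3 and then at 80.6 and 98.5. Arnt2, a transcription factor subunit of neurons, was at 267 and 267 CPM in WT and at 217 and 192 in the double knockout, and it was also called lower in footprints (edgeR adjusted p = 0.0033). These 3 genes are named for their place near Cpeb1 after their values were seen. In the Fmr1 knockout Mex3b was at 24.9 and 25.2 CPM, Mfge8 at 65.1 and 93.6, and Arnt2 at 217 and 220.0. In the Cpeb1 knockout they were at 29.1 and 35.4, 80.6 and 69.8, and 142 and 177. Of the 3, only Mex3b had both double knockout libraries outside the range of the single knockouts.

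Within 10 Mb of Fmr1 on chromosome X, 5 of 73 genes (6.85%) had an unadjusted p under 0.05, 3 higher and 2 lower. Arhgap4, a GTPase activator at X:73894352-73911345, was among them and falls under the abundance limit of the naming rule. WT held 6 and 10 counts of it and the double knockout 41 and 33, with 28 and 14 where Fmr1 alone was lost and 9 and 12 where Cpeb1 alone was. Both genotypes without Fmr1 were thus above both with it, and the log2 difference of the double knockout from WT was 2.24 (edgeR adjusted p = 0.966). Arhgap4 footprints showed no such order of genotypes, with a log2 difference of -0.30. Flna, an actin crosslinker, was at 90.7 and 85.3 CPM in WT and at 120.0 and 107 in the double knockout, with 89.6 to 91.4 in the 4 single knockout libraries. Pls3, described above with the footprint calls, lies 7.13 Mb from Fmr1 and was among the 2 lower genes of this window. Over the whole of chromosome X, 174 of 457 genes were higher in the double knockout and the median was -0.06, against 0.00045 for the autosomes.

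Gene length bore on the numbered pairs in opposite ways. With genes put in 5 groups of equal size by counted length, the shortest group had a median change of -0.07 in the libraries numbered 1 and 0.06 in those numbered 2, and the longest group of 0.02 and -0.06. In the fitted difference of the double knockout these offset, with medians from -0.01 to 0.01 over the 5 groups. The single knockouts ran from 0.12 in the shortest group to -0.08 (Fmr1 knockout) and -0.07 (Cpeb1 knockout) in the longest. Ribosomal and respiratory chain genes are short and postsynaptic scaffold genes long, and the part of length in the list medians of the single knockouts was not tested here.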

How the data were processed

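Expected counts per gene, with TPM and feature lengths, were deposited by the authors as 1 table per library in RSEM's format, per the file headers. RSEM is a program that divides reads fitting several genes among them, so its counts need not be whole. Cutadapt, Bowtie2, TopHat2, RSEM and DESeq2 and the build mm10 are named in the submitters' processing notes, without versions. The deposited TPM columns were not used. The authors' deposited comparison tables hold log2 fold changes and adjusted p-values from DESeq2, per the series' design text; they were given as WT over double knockout and the sign was turned.

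Expected counts were rounded and tested with edgeR 4.0.16 in R 4.3.3: TMM scaling, filterByExpr (minimum count 10), glmQLFit and glmQLFTest over all 8 RNA libraries with the replicate number as a block. Of 20436 genes listed, 13287 were tested in RNA and 13774 in footprints. A gene was called at a Benjamini-Hochberg adjusted p under 0.05 over all genes tested. CPM values use TMM scaling. Intervals are the fitted change ± the t quantile times SE, at 95%. DESeq2 1.42.0 was an alternative. The fit was tested on simulated data.

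Genes named were Fmr1 and Cpeb1; the 8 highest and 8 lowest log2 differences among genes with an unadjusted p under 0.05, the same direction in both numbered pairs, a mean of at least 50 counts and a non-provisional symbol; up to 8 genes called in footprints with the lowest RNA p; the 6 genes with the largest gap between the pairs; and up to 4 genes per list, by lowest p and highest count. Others are named where a result turns on them, after their values were seen. Some genes that these rules select are not reported here. Members, lists and rules were chosen with earlier results of these data known. Coding-length features, paralogs and overlapping loci can shift estimated counts. Gene positions are RefSeq's for GRCm38.p6, found for 13254 of 13287 genes.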

Additional observations from a re-analysis of the deposited data

Results flagged for a closer look

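The effect of losing 1 of the proteins on RNA differed with the presence of the other in 274 genes, by the interaction test in edgeR. Of the genes named above, Nbl1, Tmem184c, Srrm3 and Gpr22 were among them. Nbl1 was higher in the double knockout than the sum of the single knockouts by 1.49 ± 0.259 (SE) on the log2 scale (edgeR adjusted p = 0.0385), and Srrm3 by 0.93 ± 0.176 (adjusted p = 0.0405). Tmem184c had an interaction of -0.80 ± 0.176 (edgeR adjusted p = 0.047) and Gpr22 of -0.93 ± 0.181 (adjusted p = 0.0405). In these 4 genes both double knockout libraries lay outside the range of the other 6 RNA libraries. The count of 274 was 0 without the replicate block.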

How the results depend on the processing

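Fmr1 was called under all alternatives. Its log2 change ran from -2.17 to -2.04 when 1 library was left out. Cpeb1 ran from -1.29 to -1.02 in those fits with no call, and it was called by DESeq2 (-1.16), without the filter on low counts (-1.16) and in the fit of the 2 genotypes (-1.16). The count of called genes in the double knockout against WT was 2 without the filter, 3 in DESeq2, 24 in the fit of the 2 genotypes, and 1 to 5 with a library left out; without the replicate block it stayed at 1. Interaction calls were 0 without the replicate block, 522 in DESeq2, 767 without the filter, 422 with at least 10 counts in every library, 1261 with the replicate block and gene length correction (690 higher, 571 lower, against 236 and 38), and 0 to 1360 with a library left out. Against the Fmr1 knockout the calls were 31 in DESeq2, 2 without the filter, 166 in the 2 genotypes alone and 0 to 193 with a library left out; 0 remained without the replicate block. Against the Cpeb1 knockout they were 212, 206 and 132, 582 with gene length correction, and 2 to 463, with 1 without the block. Footprint calls were 73 without the replicate block, 85 in the 2 genotypes alone and 31 to 1318 with a library left out. Genes bounded inside 2-fold numbered 9692 to 10690 with a library left out.

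Reversals occurred in the genes whose pairs lay apart: Dnah6 was at -0.014 in DESeq2 and from -1.36 to 3.25 with a library left out, Lkaaear1 from -5.52 to 1.23, and Pla2g4e from -2.20 to 0.74. Of 320 values of the other named genes, 299 kept their direction and side of the threshold, and 7 reversed. Of 408 list medians, 71 moved by more than the spread between the pairs. No scaling moved the median of all genes beyond -0.02. The replicate numbers were checked for pairing. Deviations of same-numbered libraries correlated from -0.04 to 0.29, and not all same-numbered pairs passed 0.1. By best correlation, 6 of 8 libraries matched one of their own number. Among libraries numbered 1, WT matched the double knockout (r = 0.26) and the Fmr1 knockout matched the Cpeb1 knockout (r = 0.49). Among those numbered 2, the Fmr1 knockout and the double knockout each matched WT, but at r = -0.005 and -0.013, which is no hint of pairing. Pairing is not stated in the labels. The fit of the 2 genotypes without the block was added after the data were seen. The causes were not tested.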
